A study of Mus musculus with 24 samples.

Results

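The genes of the Sonic hedgehog pathway described here are Shh, Ptch1, Smo, Gli1, Gli2, Gli3, Hhip, Boc and Cdon, 9 of the 51912 genes in the count tables. They were taken by name, as the ligand, its receptors and binding proteins, the transducer and the 3 transcription factors of the pathway. RNA-seq counts were available for 3 libraries each of mouse embryonic stem cells (ESCs), neuronal progenitors (NPs) and ESCs lacking the TET enzymes (TET TKO). ESCs were wild type (WT) TC-1 cells of strain C57BL/6 X 129S5, grown with leukaemia inhibitory factor. NPs were made from WT ESCs of the same strain, grown as cellular aggregates and then given retinoic acid, so the change of cell type and the exposure to retinoic acid cannot be told apart. TET TKO ESCs carried a triple knockout of TET1, TET2 and TET3 in strain C57BL/6 X 129/sv, so genotype and line cannot be told apart either. The series holds no NPs of the TET TKO genotype, and the study states that these ESCs cannot be made into NPs. The ESC libraries served as the reference of both comparisons.

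In the hedgehog pathway, a secreted ligand such as Sonic hedgehog (SHH) binds the receptor PTCH1 and thereby frees the membrane protein SMO, which acts at the primary cilium. SMO then keeps the GLI transcription factors from being cut into repressors, GLI3 being the main source of repressor and GLI1 an activator whose gene is itself a target. Ptch1 and Hhip are targets too, and their proteins hold the ligand back, whereas BOC, CDON and GAS1 are co-receptors that help present it to PTCH1. In the embryonic spinal cord, SHH from the notochord and floor plate sets which progenitors form along the ventral side.

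The labels were checked first. Tet1 fell from 65.1 ± 3.92 RPKM in ESCs to 13.5 ± 2.38 in TET TKO ESCs, and Tet2 fell from 18.97 ± 2.47 to 2.48 ± 0.197 (SD, n = 3 each), while Tet3 was at 0.715 ± 0.0744 and 0.551 ± 0.0724 RPKM and was too low to be tested. RPKM is the read number divided by exon length and by library size, after TMM scaling of library sizes. All 7 ESC markers fell in NPs, where their summed level was 5.45 to 9.79 RPKM against 1362 to 1393 in ESCs. By the limits for a call given below, 5 of 6 neural progenitor markers were higher in NPs, beside 12.4% of all genes tested. Of these 5, Pax6, Sox1, Hes5 and Fabp7 reached 1 RPKM in NPs alone, so they entered the test only through that group. Library totals were 20570050 to 23976914 counts in ESCs, 20519702 to 22132988 in NPs and 80704741 to 93210102 in TET TKO ESCs, so low genes were measured more precisely in the last group. Since whole populations were sequenced, fewer cells expressing a gene and less RNA per cell cannot be told apart.

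For the members, RefSeq promoter windows (GRCm38.p6, from 250 bases before to 50 bases after a tabulated start) were found for 6 of 9 genes, and Shh, Gli1 and Boc had no entry. The windows of Smo, Gli2 and Hhip are shown because they begin upstream of the gene as the count tables define it and because these genes took 3 different courses in the data: Smo rose in NPs, Gli2 fell in each comparison, and Hhip rose in NPs but fell in TET TKO ESCs. Capitals mark CpG dinucleotides, the sites at which DNA methylation occurs. The window of Smo is at chr6:29735247-29735546 on the plus strand, that of Gli2 at chr1:119053570-119053869 on the minus strand and that of Hhip at chr8:80057959-80058258 on the minus strand.
Smo: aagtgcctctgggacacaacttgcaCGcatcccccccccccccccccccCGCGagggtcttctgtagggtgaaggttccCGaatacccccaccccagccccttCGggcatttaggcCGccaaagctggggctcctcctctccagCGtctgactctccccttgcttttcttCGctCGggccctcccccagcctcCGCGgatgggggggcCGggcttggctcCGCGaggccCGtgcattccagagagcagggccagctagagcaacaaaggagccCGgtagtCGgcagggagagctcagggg
Gli2: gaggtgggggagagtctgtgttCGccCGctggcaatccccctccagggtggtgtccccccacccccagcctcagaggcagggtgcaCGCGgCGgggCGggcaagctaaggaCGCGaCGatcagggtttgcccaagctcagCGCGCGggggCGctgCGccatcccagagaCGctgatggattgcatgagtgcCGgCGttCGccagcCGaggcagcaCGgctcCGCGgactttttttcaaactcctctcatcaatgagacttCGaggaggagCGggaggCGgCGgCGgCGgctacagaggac
Hhip: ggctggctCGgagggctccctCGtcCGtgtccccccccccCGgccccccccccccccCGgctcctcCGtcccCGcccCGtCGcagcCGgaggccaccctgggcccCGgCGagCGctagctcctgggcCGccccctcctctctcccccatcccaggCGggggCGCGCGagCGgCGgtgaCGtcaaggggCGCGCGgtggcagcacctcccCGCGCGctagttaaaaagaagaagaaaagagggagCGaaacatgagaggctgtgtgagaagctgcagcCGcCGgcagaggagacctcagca

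These windows held 17, 28 and 30 CpGs for Smo, Gli2 and Hhip, against 47 in Ptch1, 39 in Gli3 and 3 in Cdon, and the median over 32851 tabulated promoters was 7. The windows of Ptch1, Gli3 and Cdon lie inside the gene spans of the count tables, so they belong to starts within those spans. The GLI binding motif GACCACCCA, searched on both strands, was in none of the 6 windows, exactly or with up to 1 mismatch. Among all tabulated promoters it occurred exactly in 0.253% and with up to 1 mismatch in 6.74%.

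For the comparison of NPs with ESCs, genes were called at an adjusted p under 0.001 (edgeR quasi-likelihood F-test, Benjamini-Hochberg over 15197 genes) and a change of at least 3-fold. By these limits 5 of the 9 members were called higher (Shh, Smo, Gli3, Boc and Cdon), beside 12.4% of all genes tested. In the same comparison 0 members were called lower by edgeR or by DESeq2, beside 9.98% of all genes. At an adjusted p under 0.05 with no fold limit, Hhip also rose and Gli1 and Gli2 fell, which made 6 higher beside 32.9% of all genes and 2 lower beside 31.2%. At an unadjusted p under 0.05 the same numbers, 6 and 2, were obtained, and the share of all genes at that limit is not given here. The median log2 fold change was 2.31 over the members and 0.04 over all genes tested. All 9 members passed the filter of 1 RPKM in at least 1 library, Shh through NPs alone.

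**Figure D1:**
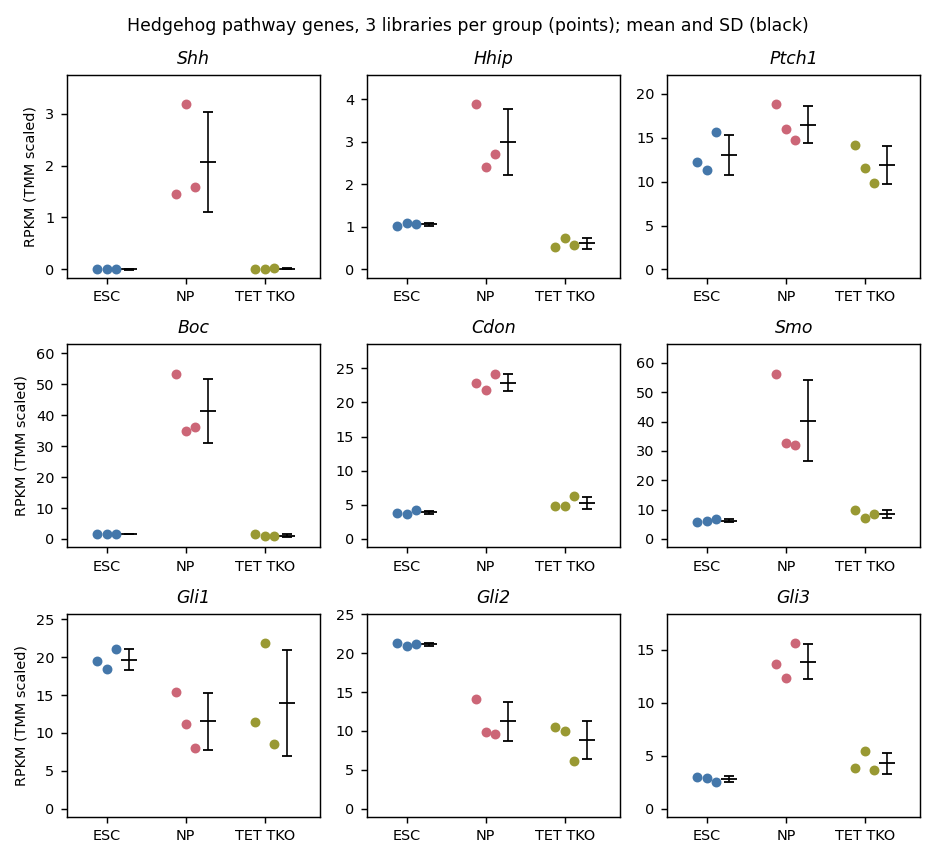
RPKM of each hedgehog pathway gene in each library (points) of ESCs, NPs and TET TKO ESCs, with the mean and SD of 3 libraries in black; each panel has its own axis. In NPs the points of Shh, Hhip, Boc, Cdon, Smo and Gli3 all lie above those of ESCs, those of Gli1 and Gli2 all lie below, and those of Ptch1 overlap.

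Shh, the ligand, lies at chr5:28456815-28467256 (GRCm38, minus strand) and was nearly silent in ESCs. Its counts were 0, 1 and 0 in ESC replicates 1 to 3, 88, 220 and 105 in NPs, and 1, 3 and 5 in the deeper TET TKO libraries. In RPKM, the NP libraries held 1.45, 3.18 and 1.59. Replicate 2 was the highest NP library, and the ranges of ESCs and NPs were far apart. With library size taken into account, the NP counts were 407 times the ESC counts, with a 95% counting interval from 72.6 to 16100 that reflects the single ESC count. The edgeR fit gave a log2 fold change of 8.18 ± 0.73 (SE, adjusted p = 2.73e-05, edgeR quasi-likelihood test). The rise was called under each alternative in which Shh was tested. Shh reached 1 RPKM in NPs alone, so under that filter it entered the test only through the group in which it was high. With a minimum of 10 counts in every library it could not be tested. Exons of 2 genes on the opposite strand, Gm26894 and 9530036O11Rik, overlap 12.7% and 15.7% of the Shh exon length, and reads were assigned without regard to strand. Gm26894 itself had 17, 9 and 11 counts in NPs.

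Shh was not the only hedgehog ligand measured in NPs. Ihh, which encodes Indian hedgehog, a ligand known from cartilage and gut endoderm, was at 9.98, 7.55 and 7.16 RPKM in NPs and at 0.0617, 0.165 and 0.147 in ESCs, a rise of 6.01 ± 0.34 (SE) on the log2 scale (adjusted p = 2.67e-06, edgeR). Ihh therefore gave 78.8% ± 8.80 of the summed RPKM of the 3 ligands in NPs and Shh 19.9% ± 8.49 (SD, n = 3), the third, Dhh, being below the limit for testing. In each of the 3 NP libraries Ihh was higher than Shh. Ihh reached 1 RPKM in NPs alone, so it entered the test only through the group in which it was high.

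Markers of other cell types were measured beside the ligands. Foxa2, made in floor plate, notochord and endoderm, rose from 0.167 ± 0.1004 to 10.1 ± 1.47 RPKM (adjusted p = 8.18e-06, edgeR). Over the 5 endoderm markers the summed level was 1.27 to 2.05 RPKM in ESCs and 22.5 to 27.7 in NPs. Of these, 3 of the 4 that could be tested were called higher, beside 12.4% of all genes. These 4 and Foxa2 reached 1 RPKM in NPs alone, so they entered the test only through the group in which they were high. The summed level of 4 floor plate and notochord markers was 1.32 to 2.62 RPKM in ESCs and 10.2 to 12.5 in NPs, most of it Foxa2. Of the other markers in that list, the notochord gene T fell from 0.787 ± 0.391 to 0.217 ± 0.0620 RPKM (log2 fold change −1.84, adjusted p = 0.00928, edgeR). T reached 1 RPKM in ESCs alone, so it entered the test only through that group. Foxj1 was at 1.10 ± 0.204 and 1.30 ± 0.438 RPKM (adjusted p = 0.567, edgeR), and Noto had 0 counts in every NP library. The summed level of 4 fibroblast markers was 18.0, 35.5 and 3.40 RPKM in NP replicates 1 to 3, highest in the library with the most Shh. Replicate 1 was above replicate 3 in this sum but below it in Shh (1.45 against 1.59 RPKM). The summed mesoderm markers reached at most 1.32 RPKM in NPs. The part of these cell types in the levels of Shh and Ihh was not tested.

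Hhip, at chr8:79965851-80058006 (minus strand), encodes a membrane protein that captures hedgehog ligands. Its levels were 1.03, 1.09 and 1.08 RPKM in ESCs and 3.88, 2.42 and 2.71 in NPs. Every NP library was above every ESC library, replicate 1 most of all. The 2.82-fold rise, 1.50 ± 0.21 on the log2 scale, had an adjusted p of 0.000334 (edgeR) and fell short of the 3-fold limit. Without NP replicate 2 it passed that limit too, with a log2 fold change of 1.63 and an adjusted p of 0.000256 by the same test.

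Ptch1, the receptor gene, at chr13:63508328-63573598 (minus strand), had 12.2, 11.3 and 15.7 RPKM in ESCs and 18.8, 15.97 and 14.8 in NPs. The groups overlapped, since ESC replicate 3 was above NP replicate 3. The change of 0.34 ± 0.15 on the log2 scale, with a 95% interval from 0.04 to 0.64, did not pass the test (adjusted p = 0.0829, edgeR), although 2 of 12 alternatives gave a value under 0.05.

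Both co-receptor genes among the members rose. Boc, at chr16:44485049-44558897 (minus strand), was at 1.65, 1.52 and 1.50 RPKM in ESCs and at 53.4, 34.9 and 36.2 in NPs. No NP library came near the ESC range, and replicate 1 was the highest. Boc rose 26.6-fold (log2 fold change 4.74 ± 0.20, adjusted p = 8.57e-07, edgeR). Cdon, at chr9:35421128-35507652 (plus strand), went from 3.79, 3.67 and 4.20 RPKM to 22.8, 21.8 and 24.2, with NP libraries close to one another. This was a rise of 5.89-fold (2.56 ± 0.12, adjusted p = 1.03e-06, edgeR). The third co-receptor gene, Gas1, which encodes a lipid-anchored surface protein, went from 0.222, 0.448 and 0.316 RPKM to 87.1, 90.2 and 74.0 (log2 fold change 7.98 ± 0.22, adjusted p = 2.45e-07, edgeR). Unlike Boc and Cdon, Gas1 reached 1 RPKM in NPs alone, so it entered the test only through the group in which it was high. Together the 3 co-receptor genes amounted to 5.77 ± 0.209 RPKM in ESCs and 148 ± 14.6 in NPs. Cdon made up 67.3% ± 2.40 of this sum in ESCs and Gas1 56.6% ± 4.23 in NPs, whereas the share of Boc, 27.0% ± 2.07 and 27.8% ± 4.53, overlapped between the groups (exact permutation test, two-sided p = 0.9).

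Smo, at chr6:29735503-29761365 (plus strand), encodes the transducer at the head of the intracellular pathway. It had 5.91, 6.02 and 6.93 RPKM in ESCs and 56.3, 32.8 and 31.9 in NPs. Replicate 1 was far above the other NP libraries, and even the lowest of these was well above ESCs. Smo rose 6.41-fold (2.68 ± 0.23 on the log2 scale, adjusted p = 2.26e-05, edgeR), and by 2.36 to 2.82 under the 12 alternatives. NP replicate 1 held the highest value of 6 of the 9 members. The same library had the highest sum of neural progenitor markers, 200.8 RPKM against 113.8 and 153.1, and of neuron markers, 172.9 against 68.5 and 128.5. In ESCs the neuron sum was 70.5 to 71.8 RPKM, most of it Tubb3, so NP replicate 2 lay below every ESC library in this sum. The part of these marker levels in the members' levels was not tested.

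The Gli genes did not move together. Gli3, at chr13:15463235-15730026 (plus strand), was at 3.02, 2.90 and 2.50 RPKM in ESCs and at 13.7, 12.4 and 15.6 in NPs. All NP libraries were above all ESC libraries, and the rise was 4.96-fold (2.31 ± 0.14, adjusted p = 4.67e-06, edgeR). Gli2, the main activator early in the response, at chr1:118834132-119053619 (minus strand), was at 21.3, 20.97 and 21.2 RPKM in ESCs and at 14.1, 9.90 and 9.62 in NPs. The ESC libraries were nearly alike and every NP library was lower, with a log2 fold change of −0.92 ± 0.16 (adjusted p = 0.000974, edgeR) that did not reach 3-fold. Gli1, at chr10:127329882-127341974 (minus strand), was at 19.5, 18.4 and 21.1 RPKM in ESCs and at 15.5, 11.1 and 7.98 in NPs. The groups did not overlap, and Gli1 fell by 0.78 ± 0.21 on the log2 scale (adjusted p = 0.0117, edgeR), a change that missed 0.05 when all 3 groups were fitted together (adjusted p = 0.0566, edgeR).

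As shares of the summed RPKM of the 3 Gli genes, Gli3 went from 6.90%, 6.85% and 5.58% in ESCs to 31.7%, 37.1% and 47.0% in NPs. Gli2 went from 48.5% ± 1.11 to 30.4% ± 1.93 and Gli1 from 45.1% ± 1.80 to 31.0% ± 6.18 (SD, n = 3). For each of the 3 genes the shares did not overlap between groups (exact permutation test, two-sided p = 0.1, the smallest value that 3 against 3 libraries can give). The sum itself was 43.65 ± 1.26 RPKM in ESCs and 36.6 ± 5.75 in NPs and overlapped (exact permutation test, two-sided p = 0.2). These are levels of RNA, and the ratio of GLI activator to GLI repressor protein was not measured.

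**Figure D2:**
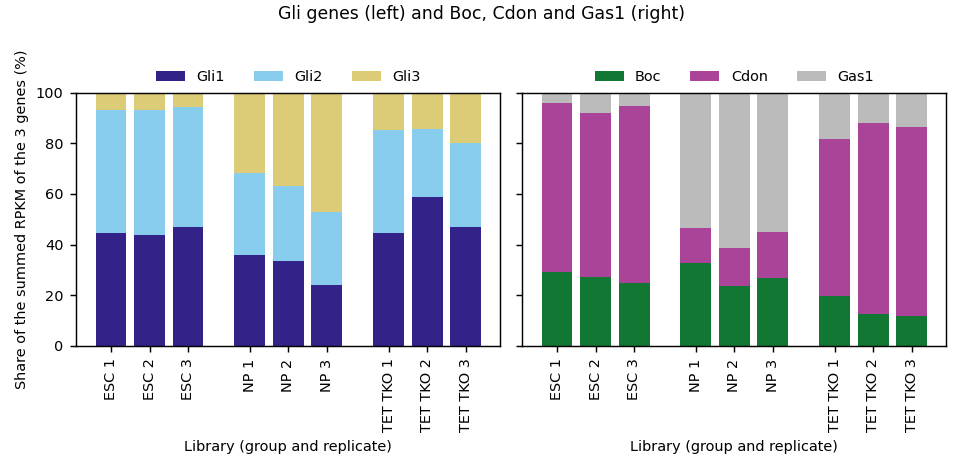
Share (%) of Gli1, Gli2 and Gli3 in their summed RPKM (left) and of Boc, Cdon and Gas1 in theirs (right), with 1 stacked bar per library. Gli3 takes 31.7% to 47.0% of its sum in NPs against 5.58% to 6.90% in ESCs, and Gas1 takes 53.4% to 61.4% of its sum in NPs against 3.92% to 7.95% in ESCs.

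By level per length, Gli2 and Gli1 led the members in ESCs (21.2 and 19.7 RPKM, ranges overlapping), followed without overlap by Ptch1, Smo, Cdon, Gli3, Boc, Hhip and Shh. In NPs Boc and Smo led (41.5 and 40.4 RPKM, overlapping), then Cdon at 22.9. Ptch1, Gli3, Gli1 and Gli2 followed at 16.5, 13.9, 11.5 and 11.2 RPKM, each overlapping the next, and Hhip and Shh were lowest at 3.00 and 2.07 RPKM and overlapped. In TET TKO ESCs Gli1, Ptch1, Gli2 and Smo, at 13.95, 11.9, 8.82 and 8.49 RPKM, formed a chain of overlapping neighbours. Cdon and Gli3 came next at 5.30 and 4.28 RPKM and overlapped, and Boc, Hhip and Shh followed without overlap.

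The rest of the pathway was taken from 6 lists of 55 genes, of which 52 could be tested between NPs and ESCs. Of these, 22 were called higher and 2 lower, beside 12.4% and 9.98% of all genes, and 35 rose and 6 fell at an adjusted p under 0.05, beside 32.9% and 31.2% (edgeR). Of the 22 called higher, 16 reached 1 RPKM in NPs alone, so that they entered the test only through the group in which they were high, and the count is a description of these genes and not support for a change of the pathway. Among genes for other ligands and ligand release, 4 of 5 tested were called higher, namely Ihh, Scube1, Scube2 and Scube3, of which Scube3 alone reached 1 RPKM in ESCs. The SCUBE proteins help lipid-bound hedgehog leave the cell, and their genes rose by 4.58, 3.77 and 2.29 on the log2 scale. Among other receptors and ligand-binding proteins, Gas1 and Gpc3, which encodes a glypican that competes for ligand, were called higher (Gpc3 log2 fold change 2.74 ± 0.26).

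Of 18 genes of signal transduction and GLI processing tested, Gpr161 and Gnas passed the limits for a rise, a share near the 12.4% of all genes. At an adjusted p under 0.05, 9 rose beside 32.9% of all genes and 3 fell beside 31.2%, and the median log2 fold change was 0.38 beside 0.04 over all genes. Gpr161, a ciliary receptor that restrains the pathway through protein kinase A, rose by 2.69 ± 0.20 on the log2 scale (adjusted p = 9.95e-06, edgeR). Gnas, which encodes the stimulatory G protein subunit, was at 0.346 RPKM in ESCs and 1.22 in NPs, and 22.0% of its exon length is shared with other genes, so its value is uncertain. Sufu, which holds GLI proteins in check, rose 2.61-fold (adjusted p = 9.48e-05, edgeR), short of the fold limit. In the cilium transport list 2 of 8 genes were called higher, again beside 12.4% of all genes, the transport train gene Ift122 (2.01 ± 0.25) and the motor gene Dync2h1 (1.597 ± 0.15), at a median of 0.61.

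**Figure D3:**
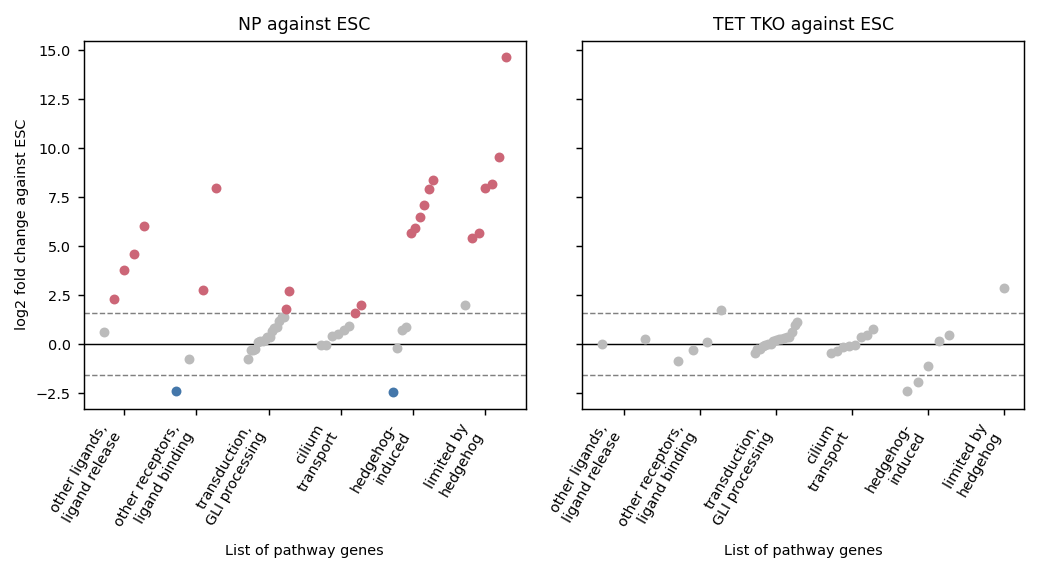
Fitted log2 fold change against ESCs (y axis) of each tested gene in the 6 lists of other pathway genes (x axis), in NPs (left) and TET TKO ESCs (right); red and blue mark genes called higher and lower, grey the rest, and dashed lines mark 3-fold. In NPs 22 genes are red and 2 blue, and in TET TKO ESCs all 37 tested genes are grey; fitted values of genes with 0 to 3 ESC counts, such as Dbx1, are not bounds.

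Of the 11 genes that hedgehog is known to induce, 10 could be tested, and 6 of these were called higher and 1 lower, beside 12.4% and 9.98% of all genes. Of the 6, all but Ccnd2 reached 1 RPKM in NPs alone and so could enter the test only as higher genes. Olig2, a factor of motor neuron progenitors, had 2 counts in all ESC libraries and 781 in NPs, a ratio of 384 with a 95% counting interval from 106 to 3180. Nkx6-1, a factor of ventral progenitors, had 1 count in ESCs and 334 in NPs, a ratio of 329 with an interval from 58.6 to 13030. Foxf1, a target in gut mesenchyme, had 1 and 190 counts, a ratio of 187 with an interval from 33.2 to 7427. Ccnd2, which encodes a cyclin of the G1 phase, went from 2.14 ± 0.256 to 192 ± 21.5 RPKM (log2 fold change 6.49 ± 0.17, adjusted p = 2.45e-07, edgeR). Nkx2-9 was the gene called lower (−2.44 ± 0.41, adjusted p = 0.000874, edgeR), and Nkx2-2 was too low in both groups to be tested.

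All 7 neural tube genes that hedgehog is known to limit reached 1 RPKM in NPs alone, so they entered the test only through the group in which they were high, and their calls are a description. By the limits 6 were called higher, beside 12.4% of all genes, and the seventh, Dbx2, rose by 1.98 ± 0.43 (adjusted p = 0.00349, edgeR). Dbx1, a factor of progenitors at the middle of the dorsoventral axis, had 0 counts in ESCs and 3141, 2819 and 3557 in NPs, at least 3123-fold higher against a floor of 3 counts over the ESC group. Pax3, a dorsal factor, rose by 9.53 ± 0.57 on the log2 scale (adjusted p = 3.74e-06, edgeR). Irx3 was at 0.136, 0.116 and 0.191 RPKM in ESCs and at 55.6, 30.1 and 44.0 in NPs (log2 fold change 8.16 ± 0.34, adjusted p = 8e-07, edgeR). Msx1, a roof plate gene, rose by 7.99 ± 0.23 (adjusted p = 2.79e-07, edgeR). The NP libraries thus held RNA of dorsal, intermediate and ventral progenitor genes side by side.

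For TET TKO ESCs, 8 of the 9 members could be tested against ESCs, and 0 were called by edgeR or by DESeq2 at an adjusted p under 0.001 and 3-fold, beside 1.1% of 13939 genes called higher and 1.21% called lower. Unadjusted p-values were under 0.05 for 5 members, a limit for which the share of all genes is not given here. At an adjusted p under 0.05 with no fold limit, Gli3 was higher, beside 22.8% of all genes, and Gli2 and Hhip were lower, beside 12.7%. The median log2 fold change was −0.32 over the members tested and 0.12 over all genes. That median of all genes was −0.04 when libraries were scaled by their totals alone instead of TMM. The share of higher calls among all calls was then 34.4% instead of 47.5%. For this reason the changes of the members tested in this comparison are also given relative to the median gene.

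**Figure D4:**
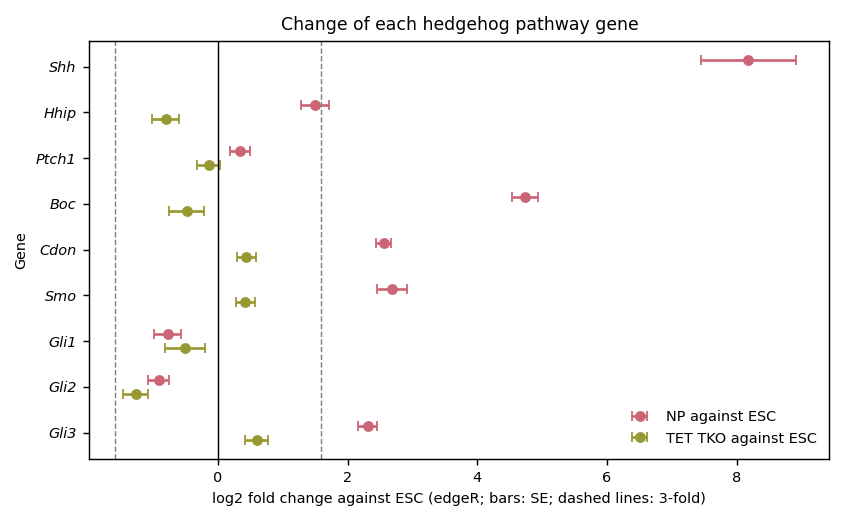
Fitted log2 fold change against ESCs (x axis, bars are SE) of each hedgehog pathway gene in NPs and in TET TKO ESCs, with dashed lines at 3-fold. In NPs the values run from −0.92 for Gli2 to 8.18 for Shh, and in TET TKO ESCs from −1.27 for Gli2 to 0.60 for Gli3, all within 3-fold; Shh was not tested in TET TKO ESCs.

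Gli2 showed the largest change among the members in TET TKO ESCs. Its levels there were 10.4, 9.97 and 6.06 RPKM, against 21.3, 20.97 and 21.2 in ESCs. All TET TKO libraries were below all ESC libraries, replicate 3 by the most. Gli2 fell by 1.27 ± 0.20 on the log2 scale, which is −1.40 relative to the median gene (adjusted p = 0.00269, edgeR). The adjusted p stayed under 0.05 in all 13 alternatives, with log2 fold changes between −1.44 and −1.06.

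Gli3 was at 3.81, 5.39 and 3.63 RPKM in TET TKO ESCs and above ESCs in every library, most in replicate 2. The rise was 0.60 ± 0.18 on the log2 scale and 0.47 relative to the median gene (adjusted p = 0.0334, edgeR). It passed 0.05 in 8 of 13 alternatives, and not without TET TKO replicate 2, without any one of the ESC replicates, or with library sizes alone, where adjusted p-values reached 0.119. Gli1 was at 11.5, 21.8 and 8.55 RPKM, so that replicate 2 was above the whole ESC range while the other libraries were below it. Its log2 fold change of −0.51 ± 0.31, −0.63 relative to the median gene, had an adjusted p of 0.231 (edgeR). Without TET TKO replicate 2 the adjusted p was 0.00453 (log2 fold change −0.98, edgeR). The share of Gli3 in the Gli sum was 14.8%, 14.5% and 19.9%, above all ESC libraries, and that of Gli2 was 33.5% ± 6.92, below them (exact permutation test, two-sided p = 0.1 for each, the smallest possible). The sum of the 3 genes was 25.7, 37.2 and 18.2 RPKM, also below every ESC library (exact permutation test, two-sided p = 0.1).

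Hhip was at 0.521, 0.750 and 0.565 RPKM in TET TKO ESCs, below the ESC range in each library. It fell by 0.81 ± 0.21 on the log2 scale, −0.93 relative to the median gene (adjusted p = 0.0193, edgeR), and passed the filter only through ESCs, whose 3 libraries were just above 1 RPKM. The adjusted p rose above 0.05, to at most 0.0769, when any one ESC library was left out.

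The remaining members did not pass the test. Relative to the median gene, the log2 fold changes of Ptch1, Smo, Cdon and Boc were −0.27, 0.30, 0.31 and −0.61. Ptch1 was at 14.2, 11.6 and 9.85 RPKM and overlapped ESCs, with a log2 fold change of −0.15 and a 95% interval from −0.49 to 0.19 (adjusted p = 0.538, edgeR). Smo, at 9.89, 7.05 and 8.51 RPKM, and Cdon, at 4.77, 4.84 and 6.29, lay above the ESC range in every library, with log2 fold changes of 0.42 ± 0.15 and 0.44 ± 0.15 and adjusted p-values of 0.065 and 0.0532 (edgeR). Smo came under 0.05 without TET TKO replicate 2 (0.0204 for its lowest adjusted p), and Cdon in 3 of 13 alternatives. Boc, at 1.53, 0.815 and 1.01 RPKM, overlapped ESCs through replicate 1 (−0.49 ± 0.27, adjusted p = 0.196, edgeR), and without that replicate its adjusted p was 0.0431. For Shh the 9 counts in TET TKO ESCs and 1 in ESCs gave a ratio of 2.596 with a 95% counting interval from 0.360 to 114, so a difference was not detectable at this depth.

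Of the other pathway genes, 37 could be tested in TET TKO ESCs. By edgeR 0 were called, beside 1.1% of all genes called higher and 1.21% called lower. DESeq2 called 3, and it also called more of all genes than edgeR did. In the edgeR fit 14 had an unadjusted p under 0.05, a limit for which the share of all genes is not given here. At an adjusted p under 0.05, 8 rose, beside 22.8% of all genes, and 4 fell, beside 12.7%, shares near those of all genes. The median log2 fold change was 0.14 beside 0.12 over all genes. The genes named next were chosen after their values were seen and are given as examples. Irx3 and Gas1 reached 1 RPKM in TET TKO ESCs alone and Ccnd2 in ESCs alone, so each entered the test only through the group in which it was high. Irx3 rose from 0.148 ± 0.0391 to 1.11 ± 0.337 RPKM (2.88 ± 0.38 on the log2 scale, adjusted p = 0.00149, edgeR). Gas1 rose from 0.329 ± 0.114 to 1.10 ± 0.325 RPKM (1.73 ± 0.37, adjusted p = 0.00962, edgeR). Arrb2, which encodes a β-arrestin, rose by 1.13 ± 0.13 (adjusted p = 0.00086, edgeR). Among the induced genes, Nkx2-9 fell by 2.38 ± 0.38 (adjusted p = 0.00315, edgeR) and Ccnd2 fell by 1.91 ± 0.46 (adjusted p = 0.0161, edgeR). Among markers, the mesoderm gene Hand1 was called higher in TET TKO ESCs, at 9.89 RPKM against 0.504, and reached 1 RPKM there alone. Of the other mesoderm markers, Tbx6 did not pass (adjusted p = 0.453, edgeR), and Mesp1 and Tbx5 were too low to be tested. The summed ESC markers were 796 to 995 RPKM against 1362 to 1393. Of these 7 genes only Zfp42 was called lower, from 304 to 50.6 RPKM, and 4 were lower at an adjusted p under 0.05 (edgeR), beside 12.7% of all genes. Fgf4 was at 74.5 RPKM in ESCs and 93.7 in TET TKO ESCs. The part of these marker levels in the members' levels was not tested.

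Because both comparisons share the ESC libraries, their values are only set side by side. On the log2 scale, Gli2 had −0.92 in NPs and −1.27 with the triple knockout, and Gli3 had 2.31 and 0.60. Hhip had 1.50 and −0.81 in the same order, and Boc 4.74 and −0.49. Gas1, the co-receptor outside the members, had 7.98 and 1.73.

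Over the 9 libraries and 15504 genes, the genes most like Shh in log2(RPKM + 0.1) were Unc5c, a netrin receptor gene (Pearson's r = 0.9995), and Khdrbs3, an RNA-binding protein gene (r = 0.996), and 853 genes had r over 0.95. Most like Ptch1 were Gm8343 (r = 0.981) and Gm17068 (r = 0.976), and most like Gli1 were Ints5, a gene of the Integrator complex (r = 0.9575), and Paf1 (r = 0.944). Only 2 genes passed r = 0.95 for Ptch1 and 1 for Gli1. The 9 points come from 3 groups of 3, share their library scaling, and give a description across these libraries without a test.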

How the data were processed

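The authors trimmed single-end RNA-seq reads, mapped them with STAR 2.6.1b to mouse genome GRCm38 and assigned them to genes of Ensembl 89 with featureCounts 1.6.2 without regard to strand; they deposited raw counts per gene for 9 libraries, 3 per group. RPKM values were computed here from these counts, TMM-scaled library sizes and the exon lengths in the deposited tables. For each comparison, genes with 1 RPKM or more in at least 1 library of both groups together were tested by the quasi-likelihood F-test of edgeR 4.0.16 (R 4.3.3) with Benjamini-Hochberg adjustment over all tested genes, and called at an adjusted p under 0.001 and at least 3-fold, limits taken from the study's methods. An adjusted p under 0.05 without a fold limit was the second rule. The SE of a log2 fold change was taken from its F statistic. A 95% interval of a log2 fold change is 1.96 SE to either side, which makes no allowance for the few libraries. Where a group had 1 to 3 counts, the ratio of counts with its exact 95% interval is given, which covers counting error only. Samples were grouped by their labels. The labels number the replicates and do not say how they were made, so p-values measure the spread between these libraries. Mean correlations with libraries of the same group were 0.981 or higher, and between 3.76% and 4.29% of each library fell on its 10 most abundant genes.

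The members and gene lists were chosen with earlier results of these data known. All 9 members are given in every library. A gene of the other lists enters the counts and is not reported here by name. From each other list every gene was counted, and up to 4 called genes per direction, largest change first, or genes a result turned on were named; the genes most like Shh, Ptch1 and Gli1 are the 2 with the highest correlation.

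The alternatives were library sizes alone, DESeq2 1.42.0, no filter, at least 10 counts in every library, all 3 groups in 1 fit, a replicate block, leaving out each library, the second call rule, and TET TKO counts thinned to the median ESC total. In a test on simulated counts for NPs against ESCs (14196 genes tested), 73 of 100 genes changed 4-fold and 94 of 100 changed 8-fold were called, with 0 false calls. For TET TKO against ESCs (13138 genes tested) these were 69 and 90 of 100, with 0 false calls. The changed genes were drawn only from genes above a minimum expected count, so these rates do not cover genes with lower counts. Promoter sequences come from RefSeq (GRCm38.p6). Figures were drawn with matplotlib 3.10.9. The methylation tables of the series were not used here.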

Additional observations from a re-analysis of the deposited data

How the results depend on the processing

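In NPs, 5 members were called under most alternatives, 4 with a minimum of 10 counts per library (Shh could then not be tested), 8 at an adjusted p under 0.05 without a fold limit, and 5 to 6 when each library was left out. Of the other pathway genes 24 were called, 14 under that minimum, which removes genes near 0 in ESCs, 41 at an adjusted p under 0.05, and 20 to 24 with each library left out. In TET TKO ESCs, 0 members were called under any alternative that kept the main limits, leaving out each library included, and 3 at an adjusted p under 0.05. Of the other pathway genes 0 were called in the edgeR fit and with each library left out, 3 with DESeq2 (Ccnd2, Irx3 and Nkx2-9), 6 without the filter, 1 with all 3 groups in 1 fit, 2 with the replicate block and 12 at an adjusted p under 0.05, and the cause was not tested. No log2 fold change of a member changed its sign. With the replicate number as a block, 5 members were called in NPs and 0 in TET TKO ESCs. Deviations of same-numbered libraries correlated at −0.083, 0.004 and −0.184 in NPs and at −0.133, 0.467 and 0.275 in TET TKO ESCs. The labels do not say how replicates were made, and the numbers were not taken as pairs. Over all genes, 3408 were called in NPs and 5281 without the filter; in TET TKO ESCs 322 were called, against 910 with DESeq2, 1263 without the filter, 674 with the replicate block and 50 to 329 with each library left out. Not every NP library correlated best with the ESC library of its own number. Among TET TKO libraries, replicates 2 and 3 did and replicate 1 did not. Whether the numbers mark pairs or a shared batch there was not tested. As ESC libraries were shallower than TET TKO libraries, a gene at a few counts in ESCs, such as Shh, could not be compared closely.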
